A study of Tremella fuciformis and Annulohypoxylon stygium and Tremella fuciformis
Annulohypoxylon stygium with 5 samples.

Results

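Enzymes that break down chitin and 1,3-glucans, the main structural polysaccharides of fungal cell walls, were followed in mycelia of 2 fungi, the edible basidiomycete Tremella fuciformis and the ascomycete Annulohypoxylon stygium. Members were the assembled transcript sequences (unigenes) whose SwissProt hit had an e-value of at most 1e-20 and a description naming a chitinase, chitin deacetylase, chitosanase, hexosaminidase, 1,3-beta-glucanase or 1,3-alpha-glucanase. Of 42507 unigenes, 174 carried such a description and 110 of them met the e-value limit. The rule used only names and e-values, no expression level. Of the 110 members, 50 belonged to T. fuciformis, 45 to A. stygium, 14 were below 1 FPKM (a level per length of sequence and library size) in the 4 single-fungus libraries and 1 was found at similar levels in both fungi. A. stygium is the ascomycete partner that T. fuciformis is cultivated with.

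The study sampled wild-type mycelia in 5 libraries, 1 for each condition. T. fuciformis was collected 1 week after it had interacted with A. stygium and, as its control, alone at 2 weeks. A. stygium was collected 1 week after interaction with T. fuciformis and, as its control, alone at 1 week. The dual library came from mixed mycelia of both fungi 1 week after they interacted. The labels give no total age for the interacting mycelia, so culture age and interaction cannot be told apart, and how the partners were separated before RNA extraction is not stated. With 1 library per condition there were no replicates, so every value below describes these libraries, no test or error could be given, and a difference cannot be set against biological spread. Because these are bulk samples, fewer cells of a kind and less RNA per cell cannot be told apart.

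Chitin is a polymer of N-acetylglucosamine, and its chains are cut by chitinases, trimmed by beta-hexosaminidases and converted to chitosan by chitin deacetylases. Beta-1,3-glucan is the main glucan of most fungal walls and is cut inside its chains by endoglucanases and from its ends by exoglucanases. Fungi use such enzymes on their own walls, during hyphal growth, branching and autolysis, and some fungi also secrete them onto the walls of other fungi. A transcript level alone does not say which of these uses applies, and the names below are those of the nearest database hit.

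Each member was given to the fungus whose single-fungus libraries held it at 1 FPKM or more and at least 10 times the level in the libraries of the other. The members were well separated by it. The highest level of any T. fuciformis member in the A. stygium libraries was 0.26 FPKM, and 31 of the 50 were at 0 in both. The highest level of any A. stygium member in the T. fuciformis libraries was 0.21 FPKM, and 36 of the 45 were at 0 in both. The genus of the best Nr hit, which the assignment did not use, was compared with a list of Tremellomycetes genera and a list of Xylariales genera. Of the T. fuciformis members, 43 had a genus on the Tremellomycetes list, none on the Xylariales list and 7 on neither. Of the A. stygium members, 37 had a genus on the Xylariales list, none on the Tremellomycetes list and 8 on neither. The lists are not complete, so a genus on neither can still belong to one of the groups. In the dual library 36.4% of the FPKM lay in T. fuciformis unigenes and 59.0% in A. stygium unigenes, so levels were rescaled to a total of 1e+06 over the unigenes of each fungus before they were compared with the fungus alone. The rescaling multiplied the dual library by 2.91 relative to T. fuciformis alone and by 1.47 relative to A. stygium alone. It changed the libraries after contact by factors of 0.975 in T. fuciformis and 0.960 in A. stygium. Read depth is not stored in FPKM values and is unknown here. Among unigenes of 0.3 to 1.5 FPKM in both libraries compared, the most frequent ratio between them, in bins of 0.05, was 0.95 to 1.05. The fullest bin held from 143 of 1341 to 440 of 2467 unigenes, so this is a weak guide to depth.

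The 2 fungi differed in how many assembled sequences carried each of these names. T. fuciformis had 10 chitin deacetylases, 6 beta-hexosaminidases, 3 chitinases, 21 exo-beta-1,3-glucanases, 2 endo-beta-1,3-glucanases, 4 endo-beta-1,3(4)-glucanases and 4 alpha-1,3-glucanases. A. stygium had 22 chitinases, 1 beta-hexosaminidase, 6 exo-beta-1,3-glucanases, 5 endo-beta-1,3-glucanases, 8 endo-beta-1,3(4)-glucanases, 3 alpha-1,3-glucanases and no chitin deacetylase. No member of either fungus was named a chitosanase. These are counts of assembled sequences and not of genes. The 50 T. fuciformis members fell into 22 assembly clusters or single unigenes, and the 45 of A. stygium into 24. Counted this way, T. fuciformis and A. stygium had 1 and 1 beta-hexosaminidases, 7 and 5 exo-beta-1,3-glucanases and 2 and 10 chitinases. They had 1 and 4 endo-beta-1,3-glucanases, 2 and 3 endo-beta-1,3(4)-glucanases and 2 and 1 alpha-1,3-glucanases. T. fuciformis had 7 chitin deacetylases, and their lack in A. stygium depends on the e-value limit, as given below. Reads of one gene can be divided among the contigs of a cluster, so levels are also given per cluster, with the contigs of one fungus and class added up.

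Annotations outside SwissProt named glycoside hydrolase or esterase families for some of the members. Of the 22 A. stygium chitinases, 19 had an annotation naming family 18, and all 22 were linked to the chitinase enzyme number EC 3.2.1.14. The 21 T. fuciformis exo-beta-1,3-glucanases were linked to EC 3.2.1.58, the exo-1,3-glucanase number, in 19 cases, and family 5 was named for 7 of them. Exoglucanases of family 55 were named only among A. stygium members of that class, in 2 of 6. The A. stygium endo-beta-1,3(4)-glucanases split into 6 contigs of family 81 and 2 unigenes of family 16, whereas family 16 was named for 2 of the 4 T. fuciformis members and family 81 for none. Of the 10 T. fuciformis chitin deacetylases, 6 were named as carbohydrate esterase family 4, the polysaccharide deacetylase family. Another 1 was named as family 18 and linked to EC 3.2.1.14.

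Together the T. fuciformis members made up 0.280% of the FPKM of that fungus after contact, 0.222% in dual mycelia and 0.347% alone. Those of A. stygium made up 0.259% after contact, 0.182% in dual mycelia and 0.317% alone. In both fungi the summed level was lower in each interacting library than alone. The most abundant class was exo-beta-1,3-glucanase in T. fuciformis, with 46.3% of the members' FPKM after contact, 38.5% in dual mycelia and 45.8% alone. In A. stygium it was endo-beta-1,3-glucanase, with 73.8% after contact, 56.7% in dual mycelia and 74.0% alone.

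**Figure D1:**
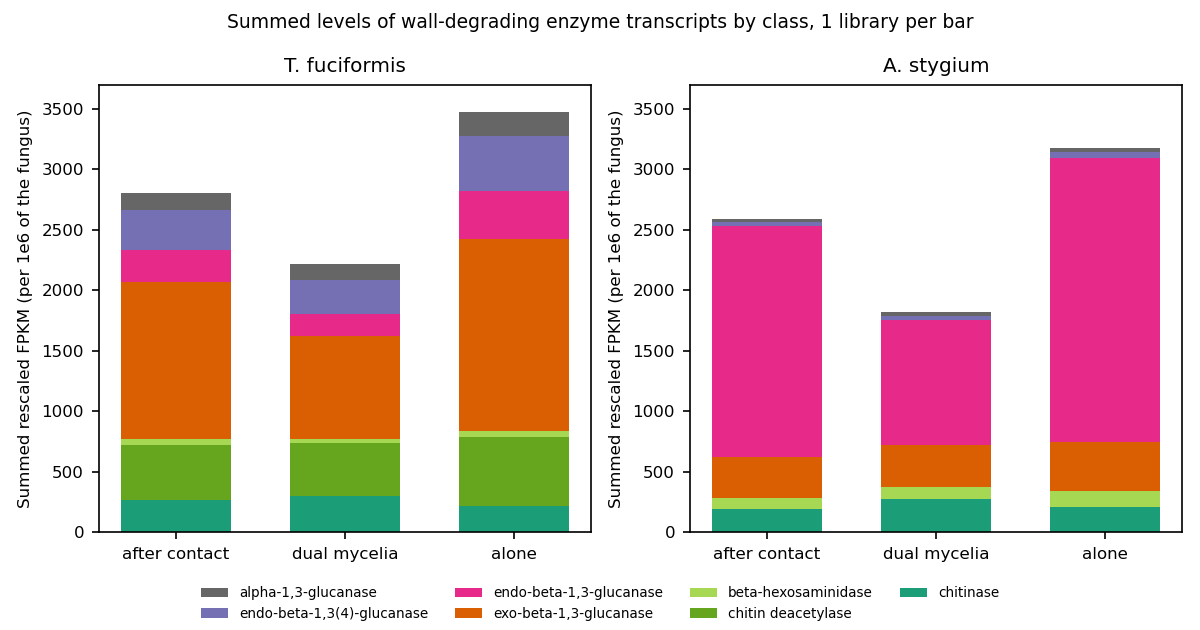
Summed level of each enzyme class (rescaled FPKM, per 1e+06 of the fungus) after contact, in dual mycelia and alone, for T. fuciformis (left) and A. stygium (right), 1 library per bar. The stacks are lower after contact and in dual mycelia than alone, where members held 0.347% of the T. fuciformis FPKM and 0.317% of the A. stygium FPKM, and the exo-beta-1,3-glucanase part (T. fuciformis) and endo-beta-1,3-glucanase part (A. stygium) are the largest.

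In T. fuciformis after contact, most wall-degrading enzymes were slightly lower than in the fungus alone, and few differed by 2-fold. The summed level of the 50 members was 1829 FPKM after contact and 2207 FPKM alone, a ratio of 0.808 after rescaling. The log2 ratio, taken as log2((after contact + 1)/(alone + 1)) of rescaled FPKM, was below 0 for 33 of the 50 members, with a median of -0.26. Over all 15354 T. fuciformis unigenes 51.0% were below 0 and the median was -0.01. Of the members, 2 were at least 2-fold higher, against 10.4% of all unigenes, and 2 were at least 2-fold lower, against 5.26% of all unigenes. At a 4-fold limit, 0 members were higher and 0 lower, against 2.43% and 1.07% of all unigenes. Of the 4 members past 2-fold, 3 were contigs or unigenes of low level that were listed at 0 in 1 of the libraries. Among the 28 members that reached 10 FPKM in either library, 0 were 2-fold higher and 1 was 2-fold lower, against 3.41% and 1.63% of all unigenes at that level.

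In dual mycelia the T. fuciformis members lay further below the level alone. The 1,3-glucanases, 31 of the 47 members compared, gave 8 of the 11 that were 2-fold lower and 4 of the 5 that were 2-fold higher. The summed level of the T. fuciformis members was 484 FPKM in dual mycelia and 2207 FPKM alone, a ratio of 0.639 after rescaling. The median log2 ratio of the 47 members with a value was -0.51, where that of all 14206 unigenes compared was -0.17. Of the 47, 5 were at least 2-fold higher, against 12.6% of all unigenes, and 11 were at least 2-fold lower, against 13.2%. At a 4-fold limit, 0 members were higher and 1 was lower, against 4.98% and 3.56%. All 5 of the higher members were below 10 FPKM in both libraries, and 8 of the 11 lower members reached 10 FPKM. That limit was applied to deposited values, before the rescaling that multiplied the dual library by 2.91. Members raised in dual mycelia therefore reached it less easily, and this contrast was partly set by the limit. Among the 26 members of at least 10 FPKM, 24 had a ratio below 0, 0 were 2-fold higher and 8 were 2-fold lower. All 26 reached 10 FPKM in the library alone, so this selection itself favours ratios below 0. Of all unigenes at that level, 67.6% had a ratio below 0, 6.75% were 2-fold higher and 7.57% were 2-fold lower. Both comparisons of T. fuciformis use the same library of the fungus alone. The lowest ratios depend in part on how contigs are counted. With the contigs of each cluster added up, the members formed 22 clusters or single unigenes, not all with a ratio. Of these, 2 were 2-fold higher and 4 were 2-fold lower. The shares of all unigenes above count single sequences and not clusters.

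**Figure D2:**
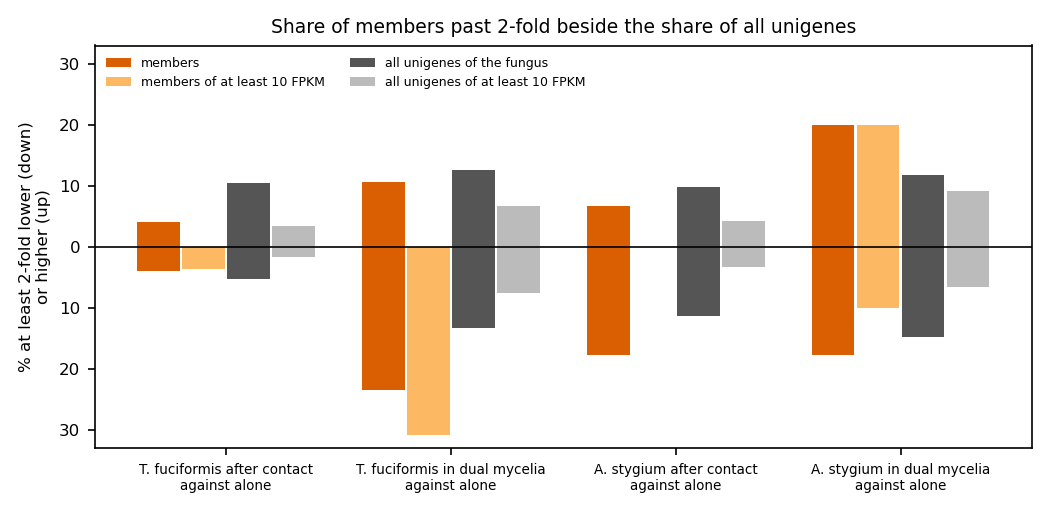
Percentage of members (orange) and of all unigenes of the same fungus (grey) that were at least 2-fold higher (above 0) or lower (below 0) than alone, for each of the 4 comparisons. Pale bars are limited to those that reached 10 FPKM in either library, where T. fuciformis in dual mycelia had 8 of 26 members 2-fold lower beside 7.57% of all unigenes. The limit was applied before rescaling, and all 26 reached it in the library alone.

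The exo-beta-1,3-glucanases, which release glucose from the ends of beta-1,3-glucan, were the largest class of T. fuciformis. Unigene10493, named glucan 1,3-beta-glucosidase A and of family 5, was the most abundant member of the fungus, with 389 FPKM after contact, 62.5 FPKM in dual mycelia and 459.6 FPKM alone. Its log2 ratio was -0.28 after contact and -1.33 in dual mycelia, so after rescaling it stood at 0.397 of the level alone in the dual library. It ranked 228 among the unigenes of the fungus after contact, 561 in dual mycelia and 205 alone.

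Cluster CL1411, whose 2 member contigs carry the same name, was the next most abundant. Contig3 had 139.7 FPKM after contact, 36.0 FPKM in dual mycelia and 163 FPKM alone. Contig2 had 137 FPKM after contact, 33.4 FPKM in dual mycelia and 159 FPKM alone. Summed over both contigs, the log2 ratio was -0.26 after contact and -0.67 in dual mycelia, within 2-fold in each.

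CL3065 holds contigs named glucan 1,3-beta-glucosidase D, a membrane-anchored type in the Aspergillus species the name comes from. CL3065.Contig2 had 35.9 FPKM after contact, 8.04 FPKM in dual mycelia and 60.6 FPKM alone, with log2 ratios of -0.78 and -1.35. CL3065.Contig1 had 33.8 FPKM after contact, 9.68 FPKM in dual mycelia and 54.9 FPKM alone, with log2 ratios of -0.73 and -0.95. Contig3 of the cluster differed from both, with 13.0 FPKM after contact, 3.24 FPKM in dual mycelia and 11.2 FPKM alone. The summed cluster had log2 ratios of -0.65 after contact and -1.04 in dual mycelia.

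CL2909, also of type D, gave the only member of at least 10 FPKM past 2-fold after contact. CL2909.Contig1 had 4.44 FPKM after contact, 2.15 FPKM in dual mycelia and 10.2 FPKM alone, and its log2 ratio was -1.12 after contact and -0.65 in dual mycelia. CL2909.Contig3 had 5.92 FPKM after contact, 1.56 FPKM in dual mycelia and 11.3 FPKM alone, with log2 ratios of -0.90 and -1.21. With all 4 member contigs added up, CL2909 had log2 ratios of -0.64 after contact and -0.52 in dual mycelia, so neither was past 2-fold.

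Not every exoglucanase was lower. CL3860, named for the fission yeast glucan 1,3-beta-glucosidase 3, had 45.4 FPKM summed after contact, 10.3 FPKM in dual mycelia and 31.1 FPKM alone, giving log2 ratios of 0.50 and -0.05. Its Contig2 held the highest ratio after contact among T. fuciformis members of at least 10 FPKM, with 18.4 FPKM after contact against 9.36 FPKM alone (log2 ratio 0.89). Both of its contigs were linked to EC 2.4.1.258 rather than to a glucanase number. CL171, with 8 contigs of 3.67 FPKM or less each, summed to 18.6 FPKM after contact, 9.98 FPKM in dual mycelia and 21.1 FPKM alone, with log2 ratios of -0.21 and 0.45. Single contigs of CL171 and CL2909 made up 3 of the 5 members that were 2-fold higher in dual mycelia, and the summed levels of the 2 clusters were within 2-fold. The last cluster of the class, CL3486, had 1 member contig with 4.74 FPKM after contact, 1.97 FPKM in dual mycelia and 3.96 FPKM alone.

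Unigenes named as enzymes that cut inside beta-glucan chains were lower in T. fuciformis in both comparisons. The 2 endo-beta-1,3-glucanases, contigs of CL4299 named btgC, are of the type anchored in the membrane in Aspergillus. Both were linked to EC 3.2.1.58, the exo-1,3-glucanase number, so their mode of cutting is not settled. CL4299.Contig1 had 88.6 FPKM after contact, 20.6 FPKM in dual mycelia and 132 FPKM alone, with log2 ratios of -0.61 and -1.14. CL4299.Contig2 had 83.1 FPKM after contact, 19.3 FPKM in dual mycelia and 121 FPKM alone, with log2 ratios of -0.58 and -1.10. Both contigs were thus within 2-fold after contact and past 2-fold lower in dual mycelia, and their summed rescaled level was 0.66 of that alone after contact and 0.457 in dual mycelia.

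The 4 endo-beta-1,3(4)-glucanases, which also cut glucans with mixed linkages, lay in clusters CL2639 and CL2658, and all 4 were lower in both comparisons. CL2639.Contig2 had 67.6 FPKM after contact, 19.2 FPKM in dual mycelia and 93.6 FPKM alone, with log2 ratios of -0.50 and -0.74. Beside family 16, another annotation names both CL2639 contigs flocculation protein FLO11, with no enzyme number. CL2658.Contig4 had 50.4 FPKM after contact, 9.97 FPKM in dual mycelia and 65.5 FPKM alone, with log2 ratios of -0.41 and -1.16. The other contig of that cluster, CL2658.Contig2, had 34.0 FPKM after contact, 13.1 FPKM in dual mycelia and 41.3 FPKM alone, with a log2 ratio of only -0.11 in dual mycelia. The rescaled class sum was 0.724 of that alone after contact and 0.607 in dual mycelia.

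Alpha-1,3-glucanases, which in fission yeast separate daughter cells, were represented by CL1838 and Unigene4029. CL1838.Contig4 had 34.7 FPKM after contact, 8.86 FPKM in dual mycelia and 47.3 FPKM alone, with log2 ratios of -0.48 and -0.86. Summed over 3 member contigs, CL1838 had log2 ratios of -0.43 after contact and -0.60 in dual mycelia. Unigene4029 was near its level alone after contact, with 2.58 FPKM against 2.64 FPKM, and had 2.12 FPKM in dual mycelia, where the rescaled log2 ratio was 1.06. That ratio rests on levels near 2 FPKM and on the rescaling, since the deposited value was lower in dual mycelia than alone.

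Chitin deacetylases, which turn chitin into chitosan, were the second most abundant class of T. fuciformis, with 16.2% of the members' FPKM after contact, 20.1% in dual mycelia and 16.5% alone. Unigene5530, whose SwissProt hit is a Cryptococcus chitin deacetylase, had 111 FPKM after contact, 36.1 FPKM in dual mycelia and 159 FPKM alone, with log2 ratios of -0.55 and -0.60. Other annotations of Unigene5530 name family 18, the chitinase number EC 3.2.1.14 and, in KOG, a beta-1,6-N-acetylglucosaminyltransferase, so its class is not settled. The rank of the class depends on Unigene5530, which held 159.42 of its 363.46 FPKM alone, where the endo-beta-1,3(4)-glucanases held 290.85 FPKM. Unigene5349 had 110.1 FPKM after contact, 39.95 FPKM in dual mycelia and 134 FPKM alone, with log2 ratios of -0.32 and -0.20. Neither passed 2-fold, and in dual mycelia Unigene5349 lay close to the median of all unigenes.

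The remaining chitin deacetylases were less abundant, and Unigene13820 and CL5955.Contig3 stayed below 3 FPKM in every library. CL1136 summed to 68.1 FPKM over 4 contigs after contact, 18.0 FPKM in dual mycelia and 66.3 FPKM alone, with log2 ratios of 0.00 and -0.33. One contig of it, CL1136.Contig2, had 10.6 FPKM after contact, 1.29 FPKM in dual mycelia and 6.36 FPKM alone. Unigene17927 was listed at 0 alone and in dual mycelia and had 1.70 FPKM after contact. CL692.Contig1 had 0.92 FPKM after contact, 1.79 FPKM in dual mycelia and 1.29 FPKM alone, and its rescaled log2 ratio of 1.60 in dual mycelia comes from levels near 1 FPKM.

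Chitinases were the 1 class of T. fuciformis whose summed rescaled level was above that alone in both comparisons, at 1.25 after contact and 1.38 in dual mycelia, and its members differed among themselves. The second value depends on the rescaling, and the deposited levels gave 0.475. CL4181.Contig1 had 71.4 FPKM after contact, 27.8 FPKM in dual mycelia and 51.9 FPKM alone, with log2 ratios of 0.42 and 0.64. CL4181.Contig2 had 94.3 FPKM after contact, 35.8 FPKM in dual mycelia and 75.1 FPKM alone, with log2 ratios of 0.29 and 0.47. Domain annotation of Contig1 names Utp25, a protein of ribosomal RNA processing, beside the endochitinase hit. Contig2 has the same hit, but its KOG entry is an uncharacterized protein and its domain annotation names no chitinase. The levels of both contigs, and the class sums that rest on them, therefore cannot be assigned to a chitinase alone. Unigene3041, which carries the family 18 annotation, had 7.46 FPKM after contact, 0.71 FPKM in dual mycelia and 8.30 FPKM alone. Its log2 ratio was -0.18 after contact and -1.72 in dual mycelia, so the sign of the class sum is that of CL4181.

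Beta-hexosaminidases, which remove single sugars from chitin fragments, came from 1 cluster of T. fuciformis, CL1293. Its 6 member contigs summed to 31.7 FPKM after contact, 6.91 FPKM in dual mycelia and 31.2 FPKM alone, with log2 ratios of -0.01 and -0.62. The contigs differed widely among themselves. CL1293.Contig8 had 6.43 FPKM after contact, was listed at 0 in dual mycelia and had 11.1 FPKM alone. CL1293.Contig20 had 9.39 FPKM after contact, 2.45 FPKM in dual mycelia and 5.10 FPKM alone. With all 10 contigs of the cluster that were assigned to T. fuciformis, whatever their description, the log2 ratios were -0.28 and -1.14.

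**Figure D3:**
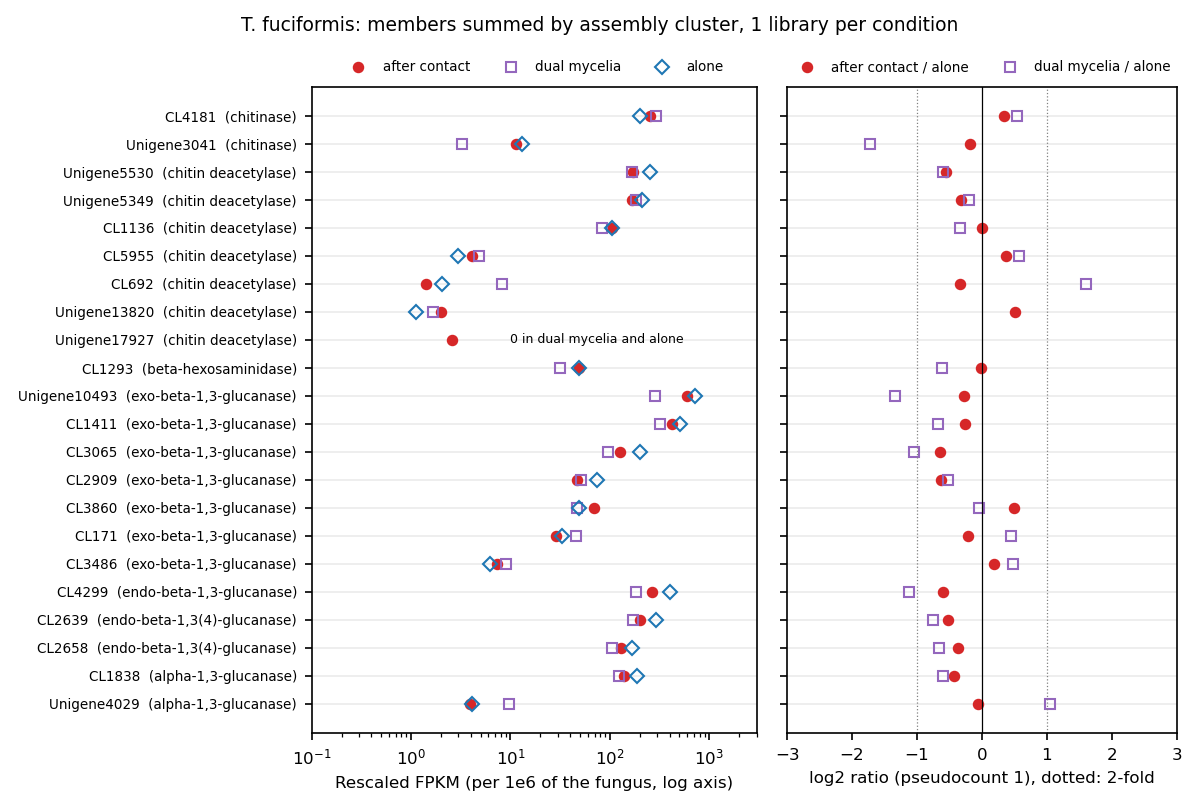
T. fuciformis members summed by assembly cluster. Left, rescaled FPKM (log axis) after contact (filled circles), in dual mycelia (open squares) and alone (open diamonds), 1 library each. Right, log2 ratios to the fungus alone, with no point where a library was at 0 or both were below 1 FPKM. After contact the clusters with 2 libraries above 0 lie between -1 and 1, and in dual mycelia Unigene10493, CL3065, CL4299 and Unigene3041 lie below -1 and CL692 and Unigene4029 above 1.

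In A. stygium after contact, the abundant wall-degrading enzymes were slightly below their level alone, and those past 2-fold were of low level. The summed level of the 45 members was 1399 FPKM after contact and 1646 FPKM alone, a ratio of 0.816 after rescaling. The median log2 ratio was -0.23 with 29 members below 0, where all 18667 unigenes had a median of -0.13 and 60.1% below 0. Of the 45 members, 3 were at least 2-fold higher, against 9.89% of all unigenes, and 8 were at least 2-fold lower, against 11.3%. At a 4-fold limit, 1 member was higher and 1 lower, against 2.93% and 3.05%. All 11 members past 2-fold were below 10 FPKM in both libraries, and 4 of them were listed at 0 in one. None of the 9 members of at least 10 FPKM reached 2-fold, and 8 of the 9 had a ratio below 0. Of all unigenes at that level, 63.0% had a ratio below 0, 4.26% were 2-fold higher and 3.26% were 2-fold lower.

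In dual mycelia the A. stygium members spread in both directions, with the most abundant endoglucanase lower and chitinases on both sides. The summed level was 643 FPKM in dual mycelia and 1646 FPKM alone, a ratio of 0.573 after rescaling. The median log2 ratio was -0.19, near that of all 17549 unigenes compared, -0.10. Of the 45 members, 9 were at least 2-fold higher, against 11.9% of all unigenes, and 8 were at least 2-fold lower, against 14.8%. At a 4-fold limit, 3 members were higher and 1 lower, against 3.9% and 4.98%. Chitinases, 22 of the 45 members, gave 6 of the 9 that were 2-fold higher and 2 of the 8 that were 2-fold lower, and 11 of the 22 had a ratio below 0. The 2 lower ones, CL5819.Contig2 and CL263.Contig2, were listed at 0 in dual mycelia and had 3.61 and 1.29 FPKM alone. Among the 10 members of at least 10 FPKM, 2 were 2-fold higher and 1 was 2-fold lower, where 9.13% and 6.51% of all unigenes at that level were. With contigs of a cluster added up, 5 of 24 clusters or single unigenes were 2-fold higher, 1 was 2-fold lower and the median was 0.05. The sign of the median thus depends on how contigs are counted. The shares of all unigenes above count single sequences and not clusters. The comparisons of A. stygium also share the library of the fungus alone.

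The A. stygium endo-beta-1,3-glucanases were dominated by 2 unigenes named eglC, of a family 17 type that is secreted and cell-wall bound in Aspergillus. Unigene2623 had 598 FPKM after contact, 192 FPKM in dual mycelia and 741 FPKM alone. Its log2 ratio was -0.37 after contact and -1.39 in dual mycelia, and it ranked 113 among the unigenes of the fungus after contact, 269 in dual mycelia and 55 alone. Unigene4704 had 407 FPKM after contact, 151 FPKM in dual mycelia and 442 FPKM alone, with log2 ratios of -0.18 and -0.99, just short of 2-fold in dual mycelia. The pair held 71.9% of the FPKM of all A. stygium members after contact, 53.4% in dual mycelia and 71.9% alone. The summed level of A. stygium members in dual mycelia therefore follows these 2 unigenes more than the other 43.

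The third endo-beta-1,3-glucanase, Unigene13569, is of the btgC type and had 24.9 FPKM after contact, 19.3 FPKM in dual mycelia and 32.7 FPKM alone. Its log2 ratios of -0.44 and -0.21 put it within 2-fold in both comparisons. CL788 was low, with 1.15 FPKM summed over 2 contigs after contact, 1.88 FPKM in dual mycelia and 2.08 FPKM alone. Unigene13569 and both CL788 contigs were linked to EC 3.2.1.58, the exo-1,3-glucanase number. The T. fuciformis contigs of the btgC type, CL4299, had log2 ratios of -0.60 after contact and -1.13 in dual mycelia when summed, and whether the fungi differ in this was not tested.

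Endo-beta-1,3(4)-glucanases of family 81 were contigs of CL706, which had 15.1 FPKM summed over 6 contigs after contact, 7.48 FPKM in dual mycelia and 21.0 FPKM alone. The log2 ratio of the cluster was -0.52 after contact and -0.91 in dual mycelia. CL706.Contig3, its most abundant contig alone and in dual mycelia, had 4.73 FPKM after contact, 4.12 FPKM in dual mycelia and 6.92 FPKM alone. Both family 16 unigenes were low and were linked to EC 2.4.2.19, a nicotinate-nucleotide pyrophosphorylase, rather than to a glucanase number. Unigene11683 had 1.51 FPKM after contact, 2.42 FPKM in dual mycelia and 1.38 FPKM alone, with log2 ratios of 0.05 and 1.10.

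Among the A. stygium exo-beta-1,3-glucanases, Unigene3999 was the most abundant. Its hit is the yeast wall protein Bgl2, named a glucan 1,3-beta-glucosidase in SwissProt although Bgl2 is known in yeast as an endoglucanase and transglycosylase. It had 141 FPKM after contact, 89.7 FPKM in dual mycelia and 170.45 FPKM alone, with log2 ratios of -0.33 and -0.37. Unigene4667, whose hit is an EXG1 exoglucanase of a plant pathogen, was close to its level alone, with 16.9 FPKM after contact, 12.7 FPKM in dual mycelia and 16.7 FPKM alone (log2 ratios -0.03 and 0.16). A second unigene with an EXG1 hit, Unigene9123, had 5.52 FPKM after contact, 7.48 FPKM in dual mycelia and 4.52 FPKM alone, with log2 ratios of 0.21 and 1.19. CL421 and Unigene7825 lay within 2-fold in both comparisons. The class sum stood at 0.831 of that alone after contact and 0.855 in dual mycelia after rescaling. Unigene3999 held 170.45 of the 207.57 FPKM of the class alone, so the class sum mostly follows this Bgl2-type unigene and not the other members.

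Chitinases formed the largest class of A. stygium by number, 22 unigenes in 10 clusters or single unigenes, but held only 7.29% of the members' FPKM after contact, 15.2% in dual mycelia and 6.64% alone. Their summed rescaled level was 0.896 of that alone after contact and 1.31 in dual mycelia, where the deposited levels also gave 0.896. Unigene1046, named endochitinase 1 after a human-pathogenic fungus, was the most abundant, with 38.6 FPKM after contact, 28.6 FPKM in dual mycelia and 46.2 FPKM alone. Its log2 ratios of -0.31 and -0.14 were within 2-fold. CL3230, with 5 contigs named 42 kDa endochitinase, summed to 13.6 FPKM after contact, 17.6 FPKM in dual mycelia and 17.5 FPKM alone, with log2 ratios of -0.41 and 0.54.

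The chitinases that were 2-fold higher in dual mycelia had low levels alone. CL5113.Contig2, named for a chitinase-like protein of fission yeast, had the highest ratio of all members with at least 10 FPKM, with 5.06 FPKM after contact, 11.3 FPKM in dual mycelia and 2.12 FPKM alone. Its log2 ratio was 1.03 after contact and 2.70 in dual mycelia. Without the pseudocount its rescaled level was 2.29 and 7.83 times that alone. CL5068, named chitinase 1 or endochitinase, summed to 4.71 FPKM after contact, 6.45 FPKM in dual mycelia and 2.58 FPKM alone, with log2 ratios of 0.70 and 1.69. Unigene11294, with the same chitinase-like name and the weakest e-value of the A. stygium members, had 13.8 FPKM after contact, 14.2 FPKM in dual mycelia and 8.70 FPKM alone, with log2 ratios of 0.58 and 1.21. It had no domain annotation, and its chitinase name rests on the SwissProt hit, the EC link and a KOG entry for chitinase.

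Other chitinase clusters stayed within 2-fold of the level alone. In dual mycelia CL263 and CL5819 had log2 ratios of -0.43 and -0.48, and CL3489 and CL6005 had log2 ratios of 0.44 and 0.10. After contact these 4 clusters lay between -0.46 and -0.01. Unigene3255 was the exception after contact, with 0.42 FPKM after contact, 1.93 FPKM in dual mycelia and 2.96 FPKM alone, a log2 ratio of -1.92 after contact and -0.05 in dual mycelia.

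The single beta-hexosaminidase of A. stygium, Unigene14283 of family 20, had 51.3 FPKM after contact, 35.0 FPKM in dual mycelia and 68.3 FPKM alone. Its log2 ratios were -0.47 and -0.41. The alpha-1,3-glucanases were 3 contigs of CL2119. Contig1 had 7.24 FPKM after contact, 6.57 FPKM in dual mycelia and 10.1 FPKM alone, Contig3 had 7.37, 5.51 and 6.96 FPKM in the same order, and Contig2 had 1.34, 0.49 and 1.40 FPKM. Summed, CL2119 had log2 ratios of -0.26 after contact and 0.00 in dual mycelia, so in dual mycelia the class lay at its rescaled level alone.

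**Figure D4:**
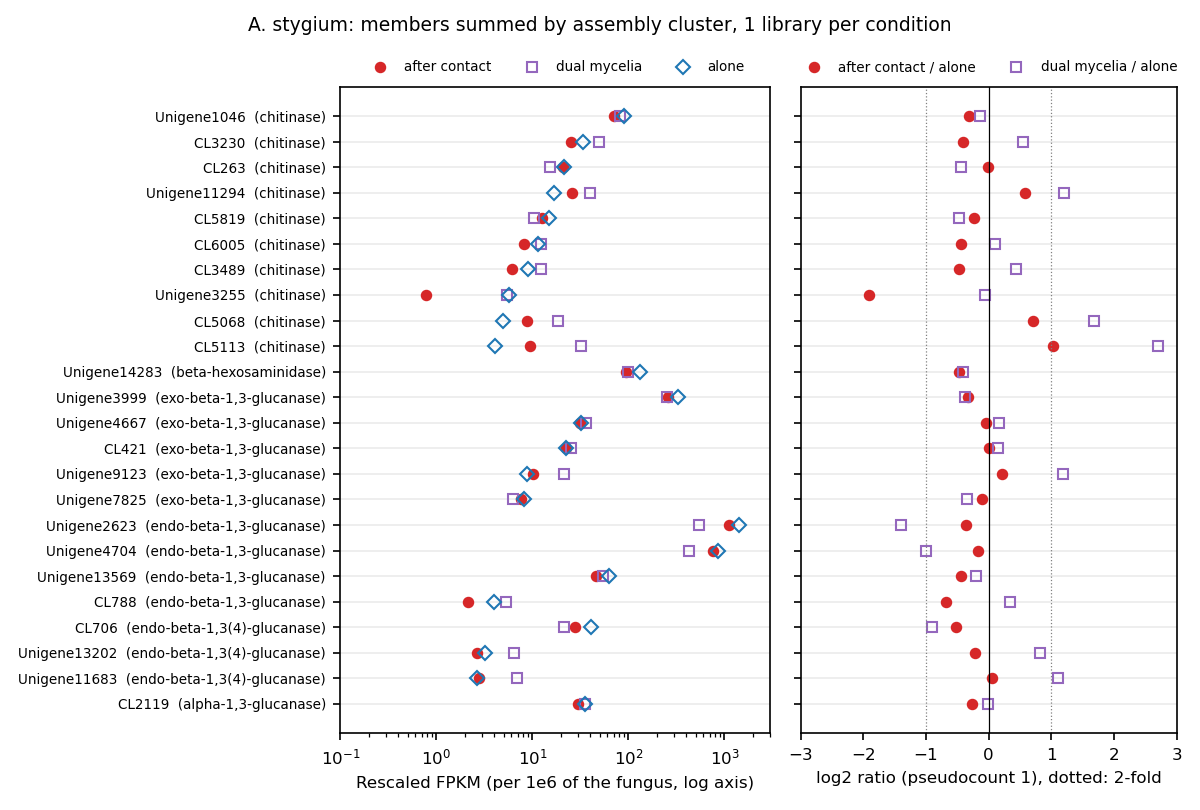
A. stygium members summed by assembly cluster. Left, rescaled FPKM (log axis) after contact (filled circles), in dual mycelia (open squares) and alone (open diamonds), 1 library each. Right, log2 ratios to the fungus alone. CL5113 lies at 2.70 in dual mycelia and Unigene2623 at -1.39, and after contact CL5113 (1.03) and Unigene3255 (-1.92) are the points past 2-fold.

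Genes that build or remodel the same walls were compared by the same measure and against the same shares of all unigenes as the members. They were chitin synthases, beta-1,3-glucan synthase, alpha-1,3-glucan synthase, beta-1,3-glucanosyltransferases, beta-1,6-glucanase and CRH-type transglycosylases, which link chitin to glucan. In T. fuciformis after contact, 1 of 25 such unigenes was 2-fold higher and 2 were 2-fold lower, with a median log2 ratio of -0.23. In T. fuciformis in dual mycelia, 1 of 23 was 2-fold higher and 4 were 2-fold lower, with a median of -0.53. In A. stygium after contact, 0 of 23 passed 2-fold in either direction and 22 had a ratio below 0, with a median of -0.23, where 60.1% of all A. stygium unigenes were below 0, 9.89% were 2-fold higher, 11.3% were 2-fold lower and the median was -0.13. In A. stygium in dual mycelia, 1 of 23 was 2-fold higher and 2 were 2-fold lower, with a median of -0.46. The 1 that was higher was a beta-1,6-glucanase, with 5.3 FPKM after contact, 14.4 FPKM in dual mycelia and 5.1 FPKM alone. Of all unigenes in T. fuciformis after contact, 10.4% were 2-fold higher and 5.26% were 2-fold lower, with a median of -0.01. In T. fuciformis in dual mycelia these shares were 12.6% and 13.2%, with a median of -0.17. In A. stygium in dual mycelia they were 11.9% and 14.8%, with a median of -0.10. Whether the wall genes differ from other genes in this was not tested.

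The e-value limit set which enzymes were counted. Just inside it lay CL1293.Contig7 at 6.8e-22, with 1.17 FPKM in T. fuciformis after contact, 0.50 FPKM in dual mycelia and 0 alone. Just outside it lay Unigene9463 at 1.3e-20, a chitinase-like unigene with 31.5 FPKM in A. stygium after contact, 37.5 FPKM in dual mycelia and 46.7 FPKM alone. Of the 64 unigenes with a matching name above the limit, 35 belonged to T. fuciformis, 18 to A. stygium, 2 to both, and 9 were low. Of these, 15 in T. fuciformis and 13 in A. stygium reached 10 FPKM. Many carry the chitinase-like name with an unrelated name in Nr or among their domains.

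Of those outside the limit, 3 abundant ones were singled out after their values were seen. Unigene4448 of A. stygium, named chitin deacetylase at an e-value of 1.3e-13 and linked to EC 3.5.1.41 and a polysaccharide deacetylase domain, had 1000.2 FPKM after contact, 286 FPKM in dual mycelia and 806 FPKM alone. Its log2 ratios were 0.25 and -0.94, and the lack of A. stygium chitin deacetylases among the members thus depends on the limit. CL7102.Contig1, a 42 kDa endochitinase of A. stygium at 1.9e-17, had 146 FPKM after contact, 20.4 FPKM in dual mycelia and 302 FPKM alone, with log2 ratios of -1.10 and -3.31. CL7503.Contig1 of T. fuciformis, named chitinase-like but linked to a polysaccharide deacetylase domain and EC 3.5.1.41, had 714 FPKM after contact, 206 FPKM in dual mycelia and 891 FPKM alone. Without any e-value limit, the summed level of unigenes with a chitinase name changed side in 3 comparisons. It stood at 0.770 of that alone in T. fuciformis after contact, 0.780 in T. fuciformis in dual mycelia and 0.721 in A. stygium in dual mycelia. The T. fuciformis sums include CL7503.Contig1, CL6715.Contig1 (529 FPKM alone, no enzyme number) and CL4786.Contig1 (349 FPKM alone, EC 3.2.1.21). They are therefore sums over a name and not levels of chitinase.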

How the data were processed

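RNA of mycelia from 5 libraries was sequenced, and the authors deposited 1 table with an FPKM value for each assembled unigene and library, beside database hits per the file headers. The sources used here name no assembler, aligner, counting tool or genome build. No other columns of values per library were present (0). Depth per library is unknown, so no counting interval is given. FPKM values were rescaled to 1e+06 over the unigenes of a fungus in each library, and log2((interacting + 1)/(alone + 1)) was taken over unigenes of at least 1 FPKM in 1 of the 2 libraries. The pseudocount of 1 understates changes of low unigenes. Limits of 10 FPKM were applied to deposited values, before rescaling, so in dual mycelia they favour unigenes that are high alone. With 1 library per group no test was run. The arithmetic was checked on simulated data without noise, with 4-fold changes placed in unigenes of at least 10 FPKM. That check does not address error in ratios of low levels. Members and lists were chosen with earlier results of these data known. Named members were the most abundant of each class, every member of classes of at most 3, and, of those with at least 10 FPKM, the 5 highest and 5 lowest ratios of each comparison, with other members added as examples after their values were seen. Alternatives changed the assignment, pseudocount, filter, rescaling, contig counting, e-value limit and fold. Python 3.11.15, pandas 2.3.3, numpy 2.4.6 and matplotlib 3.10.9 were used.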

Additional observations from a re-analysis of the deposited data

Results flagged for a closer look

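Of the 15 members that entered no comparison, because they were too low in the single-fungus libraries or present in both fungi, 4 reached at least 1 FPKM in the dual library. Those left out as too low were by rule below 1 FPKM in every single-fungus library. A dual level of 1 FPKM or more therefore lay above their level alone by construction. CL171.Contig3, an exo-beta-1,3-glucanase contig with a Tremellomycetes hit, had 1.28 FPKM in the dual library and 0.39 FPKM in T. fuciformis alone. CL5228.Contig2, an exo-beta-1,3-glucanase contig with a Tremella hit, had 2.73 FPKM in the dual library and 0.94 FPKM in T. fuciformis alone. Unigene10274, an endo-beta-1,3-glucanase, had 1.89 FPKM in the dual library and 0.89 FPKM in A. stygium alone. Unigene2954, a chitin deacetylase found in every library, had 2.69 FPKM in the dual library, 2.08 and 1.96 FPKM in T. fuciformis and A. stygium after contact, and 2.21 and 2.03 FPKM in T. fuciformis and A. stygium alone. The other 11 were below 1 FPKM in all 5 libraries. All of these are deposited values, not rescaled, of single libraries near 1 FPKM.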

How the results depend on the processing

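No paired analysis was possible because each group had 1 library and no replicate numbers. Median log2 ratios of the members were below 0 under every alternative run except 1, A. stygium in dual mycelia with contigs summed, where the median was 0.05 instead of -0.19. Only 1 median shifted by more than 1.5-fold: without rescaling, the median of T. fuciformis in dual mycelia was -1.68, and 35 members were then 2-fold lower and 0 higher. Counts of members past 2-fold were small and depended on the settings. In T. fuciformis after contact, the 2 higher became 1 with the fungus taken from the Nr genus, 0 at 10 FPKM, 1 with contigs summed, 0 at an e-value of 1e-50 and 0 at 4-fold, and the 2 lower became 1 at 10 FPKM and 0 with contigs summed, at 1e-50 and at 4-fold. In T. fuciformis in dual mycelia, the 5 higher became 0 at 10 FPKM, 2 with contigs summed, 0 at 4-fold and 11 with no e-value limit, and the 11 lower became 4 with contigs summed, 7 at 1e-50, 1 at 4-fold and 18 with no limit. In A. stygium after contact, the 3 higher became 6 with a pseudocount of 0.1, 0 at 10 FPKM and 1 without rescaling, with contigs summed, at 1e-50 and at 4-fold, and the 8 lower became 0 at 10 FPKM, 5 without rescaling, 1 with contigs summed, 5 at 1e-50 and 1 at 4-fold. In A. stygium in dual mycelia, the 9 higher became 2 at 10 FPKM, 4 without rescaling, 5 with contigs summed and 3 at 4-fold, and the 8 lower became 1 at 10 FPKM, 1 with contigs summed, 4 at 1e-50 and 1 at 4-fold. Stricter limits and summed contigs compare fewer members or clusters by construction. The limit of 10 FPKM was applied before rescaling, so in dual mycelia it favoured members that were high alone. The alternative with no e-value limit was chosen after seeing the data. Of the class sums, the beta-hexosaminidases of T. fuciformis in dual mycelia stood at 1.06 of the level alone at 1e-50, against 0.645 at 1e-20. Without rescaling, the class sums of T. fuciformis in dual mycelia stood at 0.157 to 0.475 of the level alone, and the chitinase sums in dual mycelia changed side, to 0.475 in T. fuciformis (1.38 rescaled) and 0.896 in A. stygium (1.31 rescaled).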
